A study of Mus musculus with 8 samples.

Results

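The interval between 6 h and 24 h of lipopolysaccharide (LPS) in CD14-deficient macrophages was measured as the array after 24 h against the array after 6 h. Its members are the genes whose brighter array of this pair lay above the median of all values on the 8 arrays of the series, an intensity of 88.2. They are 6831 of the 12394 genes named on the array, and the other 5563 genes were too dim on both arrays to be compared. The dimmest gene inside the limit was Zfp82, with a brighter intensity of 88.2 and a log2 difference of 0.41. The brightest gene outside it was Klhl25, with a brighter intensity of 88.1 and a log2 difference of -1.20. Each array is 1 group, so the differences below carry no replicate check, and p-values are left out.

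The cells were macrophages grown from mouse bone marrow, on a C57BL/6 background, from wild-type mice and from Cd14-/- mice aged 6-8 weeks. Marrow was cultured for 7 days in IMDM with M-CSF, which turns marrow precursors into macrophages, and 10% serum, and cells were then plated. The CD14-deficient cells were taken without stimulus (called 0 h here) and after 6 h or 24 h with 1 µg/ml LPS, and wild-type cells were taken in the same way with 1 µg/ml of what their labels call smooth LPS. A further wild-type pair received LPS for 6 h or 24 h together with EGTA, which binds calcium outside the cell; only the label of the 24 h sample states its dose, 2 mM. The knockout is in every cell of the mouse, and the labels do not say how many mice or cultures stand behind an array. LPS was given at plating, so the 6 h cells were harvested 6 h after plating and the 24 h and unstimulated cells 24 h after it. Time with LPS and time since plating therefore cannot be told apart in the 24 h to 6 h difference. The 0 h and 6 h arrays differ in time since plating too, so LPS and plating time cannot be told apart between them either. Where the text below says before LPS, it means the unstimulated array and not an earlier time.

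CD14 is a surface protein that takes up LPS and passes it to TLR4 and its partner MD-2. TLR4 then signals from the cell surface through MyD88 to NF-kB and MAP kinases, and after uptake, a step that CD14 promotes, through TRIF to IRF3 and type I interferon. Early targets such as cytokines, chemokines and inhibitors of the same pathway are known to peak in the first hours, while interferon-dependent genes follow and last longer. Macrophages grown in M-CSF divide, and LPS is known to stop their cycle.

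The labelled cell type and genotype were checked first. Of 8 macrophage markers 7 were compared, and the summed intensity of all 8 was 51702 at 0 h, 51907 at 6 h and 61550.0 at 24 h of LPS in the CD14-deficient cells. The eighth, Cd14, was at the floor of 38.4 on all 3 of these arrays; where its probe set lies relative to the deleted part was not determined. B cell, NK cell and dendritic cell markers were at the floor at 6 h and 24 h, and 6 of 9 neutrophil markers were too, with sums of 543 at 6 h and 911 at 24 h for all 9. Of the 5 T cell markers Cd3e, Cd3g and Cd8a were at the floor at both times, and the sums of 3225 at 0 h, 694 at 6 h and 455 at 24 h came mostly from Cd28. In bulk RNA, fewer cells of a kind and less RNA per cell cannot be told apart. RNA integrity numbers were 9.7 for both LPS arrays, and the ratio of 3' to 5' actin signal ran from 1.11 to 1.27 over the series.

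Between 6 h and 24 h of LPS, 295 of the 6831 genes were at least 2-fold higher, which is 4.32% of them, and 421 were at least 2-fold lower, which is 6.16%. The median log2 difference was 0.06, and 95% of genes, taken around the centre, fell in the range from -1.58 to 1.22. The lower tail was the longer one: 88 genes were at least 4-fold lower against 23 at least 4-fold higher, and 13 against 2 passed 8-fold. With the intensities as deposited, before the arrays were brought to a common distribution, the split was 513 higher and 317 lower, so the share of higher genes among those called went from 41.2% to 61.8%, and the median of all genes moved to 0.23. For 76 compared genes 1 of the 2 arrays was at the floor, which makes their fold a lower bound; 23 of them were at the floor at 6 h and 53 at 24 h.

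**Figure D1:**
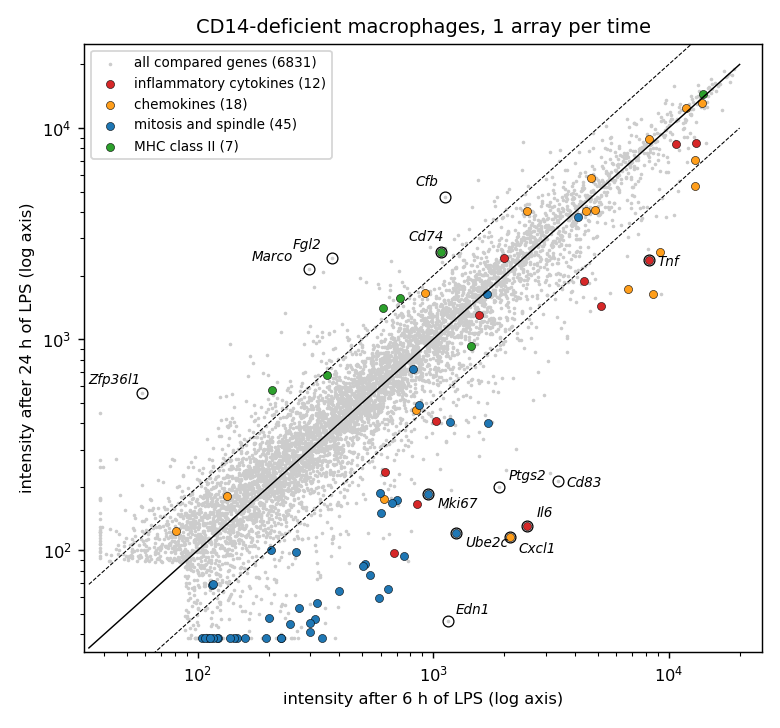
Intensity after 6 h of LPS (x, log axis) against intensity after 24 h (y, log axis) in CD14-deficient macrophages, 1 array each, for all 6831 compared genes (grey) and 4 gene lists (colours); dashed lines mark 2-fold. The mitosis and cytokine genes lie mostly below the lower line, Il6 at 2510 and 131, and Marco lies far above the upper line at 298 and 2158.

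The largest declines with both arrays above the floor were in secreted products of the early response. Edn1, the vasoconstrictor endothelin 1, was at the floor at 0 h, at 1157 after 6 h and at 46.2 after 24 h, a log2 difference of -4.65 between the LPS times. Il6, the acute-phase cytokine, stood at the floor at 0 h, at 2510.2 after 6 h and at 131 after 24 h, 19.2-fold lower. Cxcl1, a neutrophil-attracting chemokine, followed with the floor at 0 h, 2115 after 6 h and 116 after 24 h, 18.3-fold lower. All 3 were thus at the floor on the unstimulated array, high at 6 h and much nearer the floor at 24 h.

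The promoters of Il6 and Cxcl1 are shown because these were, in their lists, the genes with the largest difference among those whose promoter held the NF-kB motif GGGANTTTC on either strand. The windows run from 250 bases before to 30 after the RefSeq start in GRCm38.p6, both on the + strand, with the motif in capitals. That of Il6 lies at chr5:30012864-30013143 and that of Cxcl1 at chr5:90890995-90891274.
Il6: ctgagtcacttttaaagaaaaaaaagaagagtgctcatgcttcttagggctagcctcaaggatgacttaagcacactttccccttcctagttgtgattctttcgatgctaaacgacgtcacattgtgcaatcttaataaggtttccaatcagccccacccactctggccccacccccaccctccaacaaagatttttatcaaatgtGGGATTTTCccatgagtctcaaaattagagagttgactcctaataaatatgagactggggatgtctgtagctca
Cxcl1: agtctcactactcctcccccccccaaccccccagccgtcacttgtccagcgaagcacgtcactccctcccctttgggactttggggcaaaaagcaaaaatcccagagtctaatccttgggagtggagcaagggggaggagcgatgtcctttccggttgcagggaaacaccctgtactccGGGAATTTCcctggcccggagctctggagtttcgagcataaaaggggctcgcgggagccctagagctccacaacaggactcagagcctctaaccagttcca
Counted from the start, the match begins at base -44 in Il6 and at base -71 in Cxcl1. In windows of 300 bases it was found in 2 of the 9 inflammatory cytokine genes that had a promoter in the table, in 3 of 12 chemokine genes and in 1.29% of 27025 genes. A match describes letters and not binding.

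Among the inflammatory cytokines, 8 of the 12 compared genes were at least 2-fold lower and none was higher, with a median log2 difference of -1.37 against 0.06 over all genes. The median was -0.31 with a floor at the 60th percentile and -0.68 with no filter, and 8 genes were at least 2-fold lower under each. Il10, the main anti-inflammatory cytokine, went with the inflammatory ones, from 46.9 at 0 h to 684 after 6 h and 97.1 after 24 h, 7.05-fold lower. Tnf, which drives fever and endothelial activation, was at 149, 8213 and 2360.0 at 0 h, 6 h and 24 h, 3.48-fold lower yet still 15.8-fold above its unstimulated level. Il15, a growth factor for NK and memory T cells, was at 505, 5168 and 1444, 3.58-fold lower. At 24 h Il10 was 2.07-fold and Il15 2.86-fold above the unstimulated level.

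The other cytokines at least 2-fold lower were Tnfsf9 by 5.15-fold, Il12b by 2.66-fold, Csf1 by 2.51-fold and Il1a by 2.33-fold. The 4 that stayed within 2-fold were Il1b, its antagonist Il1rn, Il18 and Ebi3, a subunit of IL-27 and IL-35. Il1b, the pyrogen made as an inactive precursor, was at 42.1 before LPS, 13064 after 6 h and 8461 after 24 h, a log2 difference of -0.63. Il1b and Il1a, its close relative, were thus both lower, and only Il1a passed 2-fold. These 4 were named after their values were seen. Il2 and Csf2, further cytokines, were at the floor on all 3 CD14-deficient arrays.

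Chemokines divided. Of 18 compared, 6 passed 2-fold, each of them lower, and the median log2 difference was -0.19. Besides Cxcl1, the lower ones were Cxcl2, at 157, 8583 and 1641 at 0 h, 6 h and 24 h (5.23-fold lower), Ccl4 (3.92-fold), the decoy-like receptor Ccrl2 (3.57-fold), Ccl22 (3.52-fold) and Ccl3 (2.43-fold). Cxcl10, an interferon-induced T cell attractant, was at the floor at 0 h, 12922 after 6 h and 7036 after 24 h, a log2 difference of -0.88. So the neutrophil attractants Cxcl1 and Cxcl2 dropped further than Cxcl10, which did not reach the 2-fold line.

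Of 29 interferon-response genes compared, 1 was at least 2-fold higher and 2 were lower, shares near the 4.32% and 6.16% of all genes, and the median log2 difference was -0.18. The higher one was Bst2, the tetherin that holds budding virus at the cell surface, at 1118, 3461 and 7863 at 0 h, 6 h and 24 h, 2.27-fold higher. The lower ones were Mx2, an antiviral GTPase, at the floor, 816 and 281 (2.90-fold lower), and Parp14 (2.09-fold lower). None of the 8 guanylate-binding proteins and immunity-related GTPases, which attack the vacuoles of intracellular microbes, passed 2-fold in either direction, with a median of -0.21. Of these, Igtp had the largest difference at -0.73. Ifnb1, which encodes interferon beta, was too dim to be compared, at the floor at 0 h, 66.8 after 6 h and the floor after 24 h, while in wild type it was at 214 after 6 h and 224 after 24 h.

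Another list joined subunits of NF-kB, the transcription factor that LPS activates, to regulators that feed back on NF-kB and cytokine signalling. Of its 21 compared genes, 9 passed 2-fold, each of them lower, with a median of -0.92. Tnfaip3, the ubiquitin-editing enzyme A20, was at 175 before LPS, 2942 after 6 h and 542 after 24 h, 5.43-fold lower. Zc3h12a, the ribonuclease Regnase-1 that cleaves cytokine mRNAs, was at 70.4, 1488 and 429, 3.47-fold lower. Socs3, which blocks cytokine receptor signalling, was at 180.0, 7439 and 3135, 2.37-fold lower. In all 3 the 24 h value lay between the unstimulated and the 6 h value. Also lower were the subunits Rel (3.93-fold) and Nfkb2 (2.38-fold), the NF-kB cofactor Nfkbiz (3.98-fold) and the NF-kB inhibitor Nfkbie (3.08-fold). The adaptors Traf1 (2.96-fold) and Tnip1 (2.21-fold) completed the 9.

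MAP kinase phosphatases and the Sprouty group ran both ways, with 4 of 9 at least 2-fold lower and 1 higher. Dusp16 was at 118, 710.1 and 164 at 0 h, 6 h and 24 h (4.34-fold lower), and Dusp2, Spred1 and Dusp1 were lower by 2.89-fold, 2.19-fold and 2.08-fold. Dusp6, which dephosphorylates ERK, had the opposite course, at 1858, 226 and 1085, 4.80-fold higher. Of 15 immediate early genes 4 were lower and 1 higher, with a median of 0.02. The lower ones were Egr2, at 613, 382 and the floor (at least 9.95-fold lower), Klf4 (2.79-fold), Maff (at least 2.79-fold, to the floor) and Klf6 (2.30-fold). Fos was 2.42-fold higher, at 4058 before LPS, 1229 after 6 h and 2970.2 after 24 h.

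Some of the surface ligands through which macrophages instruct T cells were lower too. Of 15 costimulatory and checkpoint ligands 7 were at least 2-fold lower and 1 higher, with a median of -0.90. Cd83, a maturation marker, was at 534 at 0 h, 3383 after 6 h and 212 after 24 h, 16.0-fold lower and below its unstimulated level. Cd40, the receptor for T cell help, was at 57.1, 8159 and 2688, 3.04-fold lower. Tnfsf4, the OX40 ligand, was at the floor, 275 and 43.2, 6.36-fold lower. Tnfsf9, counted among the cytokines too, Icosl (2.29-fold), the checkpoint receptor Havcr2 (2.26-fold) and the adhesion ligand Icam1 (2.02-fold) were the other lower ones, and Vsir, which encodes the checkpoint ligand VISTA, was 2.06-fold higher.

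Several effector enzymes were among the lower genes. Ptgs2, the inducible cyclooxygenase COX-2, was at the floor at 0 h, 1907 after 6 h and 199 after 24 h, 9.59-fold lower. Ptges, the prostaglandin E synthase that acts on the product of Ptgs2, was at 41.2, 1607 and 1829, a log2 difference of 0.19. The 2 enzymes of this chain thus parted, and Ptgs2 was the only one of 8 prostaglandin and leukotriene genes past 2-fold. Nos2, which makes nitric oxide, was at the floor, 439.8 and 87.5, 5.03-fold lower. With it in its list of 10 were Odc1, the first enzyme of polyamine synthesis (4.24-fold lower), the transglutaminase Tgm2 (3.42-fold) and the mannose receptor Mrc1 (3.10-fold), and none was higher. Of 14 genes of extracellular proteolysis 3 were lower, led by the urokinase receptor Plaur at 1415, 2041 and 240.4 (8.49-fold), and Mmp14 was 2.06-fold higher.

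Of 17 genes of pattern recognition and TLR signalling 2 passed 2-fold, both of them lower, and the median was -0.29. Nlrp3, the scaffold of the inflammasome, was at 167 at 0 h, 1622 after 6 h and 338 after 24 h, 4.80-fold lower. Tlr2, the lipoprotein receptor, was at 211, 7667 and 3754, 2.04-fold lower and still 17.8-fold above the unstimulated level. Of 22 apoptosis and inflammasome genes 4 were lower (Nlrp3, Aim2, Fas and, at 2.01-fold, Casp4) and 2 were higher, the adaptor Pycard (2.03-fold) and Casp9 (2.19-fold).

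**Figure D2:**
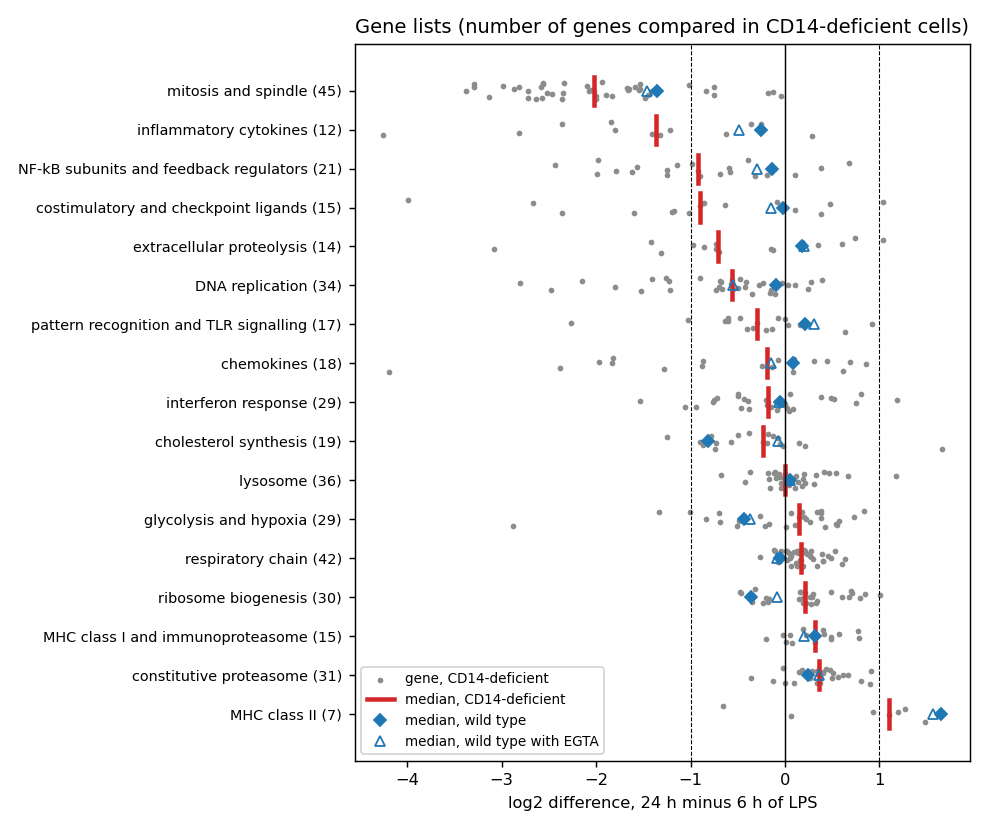
Log2 difference between 24 h and 6 h of LPS (x) for a selection of the gene lists (y). Each grey point is a gene in the CD14-deficient pair. The list's median is shown there (red bar), in wild type (blue diamond) and in wild type with EGTA (open triangle). Dashed lines mark 2-fold. The mitosis list has the lowest CD14-deficient median, -2.02, and the MHC class II list the highest, 1.11; list names give the number of genes compared in the CD14-deficient pair.

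Genes of mitosis and the spindle formed the largest block of lower genes. All 45 compared had a lower value at 24 h than at 6 h, 39 of them at least 2-fold, and their median log2 difference was -2.02. Ube2c, which charges the anaphase-promoting complex with ubiquitin, was at 826 before LPS, 1253 after 6 h and 121 after 24 h, 10.4-fold lower. Ccnb2, a mitotic cyclin, was at 696, 642 and 65.4, 9.83-fold lower. Cenpa, the histone of centromeres, was at 963, 587 and 59.7, 9.82-fold lower. At 6 h these 3 were still within 2-fold of the unstimulated array, and the drop came between the LPS times. The other large members were Pbk (at least 8.81-fold, to the floor), Top2a (7.95-fold), Bub1 (7.29-fold) and Nusap1 (7.04-fold). The size of this list's median depends on where the floor is set, because many members are dim at 24 h: with a floor at the 60th percentile it was -0.29.

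The promoters of Ube2c and Ccnb2 are shown because the list shared letters that the choice of members did not use. Ube2c had the largest difference among list members whose promoter held the CHR element TTTGAA, and Ccnb2 was added after its values were seen, since it holds both of the elements described next. Capitals mark the CHR element (TTTGAA) and the CCAAT box on either strand; in 1 place in Ube2c, boxes on opposite strands overlap. The window of Ube2c is chr2:164769679-164769958 on the + strand and that of Ccnb2 chr9:70421525-70421804 on the - strand.
Ube2c: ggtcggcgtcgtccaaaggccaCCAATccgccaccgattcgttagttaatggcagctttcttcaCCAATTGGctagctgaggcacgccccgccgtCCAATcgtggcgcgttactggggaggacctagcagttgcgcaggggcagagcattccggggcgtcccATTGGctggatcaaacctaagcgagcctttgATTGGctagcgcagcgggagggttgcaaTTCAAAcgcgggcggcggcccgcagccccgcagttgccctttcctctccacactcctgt
Ccnb2: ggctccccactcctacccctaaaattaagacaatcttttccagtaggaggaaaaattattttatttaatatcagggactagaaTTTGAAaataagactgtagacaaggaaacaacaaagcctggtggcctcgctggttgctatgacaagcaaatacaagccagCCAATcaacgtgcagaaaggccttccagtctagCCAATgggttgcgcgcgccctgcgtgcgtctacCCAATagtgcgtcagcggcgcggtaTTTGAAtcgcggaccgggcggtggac
In windows of 300 bases the CHR letters were found in 28 of 38 mitosis genes with a promoter in the table, 73.7%, against 20.2% of 27025 genes and 13.9% of 5654 compared genes. The CCAAT box was found in 27 of the 38, 71.1%, against 41.1% of all genes. In Ccnb2 the CCAAT boxes begin at bases -87, -54 and -21 from the start, all on the strand of the gene. In the DNA replication list the CHR letters were in 4 of 28 promoters, 14.3%, the CCAAT box was in 17, 60.7%, and the E2F motif TTTGGCGC was in 5 of 28, 17.9%, against 0.585% of all genes.

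DNA replication genes were lower by less. Among 34 compared, 9 passed 2-fold, all of them lower, and the median was -0.56, or 0 with a floor at the 60th percentile, where 2 genes were lower. Rrm2, a subunit of ribonucleotide reductase, was at 1716 before LPS, 267 after 6 h and at the floor after 24 h, at least 6.97-fold lower. Mcm5, of the replicative helicase, was at 892, 331 and 74.7, 4.43-fold lower. Unlike the mitotic genes above, both were already over 2-fold below the unstimulated array at 6 h. Mcm10, Tk1, Pola1, Rrm1, Ccne1, Mcm7 and Lig1 were the other members past 2-fold.

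Cell cycle regulators of G1 and targets of p53 went both ways, with 6 of 27 at least 2-fold higher and 8 lower. Sesn1, which restrains growth signalling under stress, was at 1915 before LPS, 138 after 6 h and 954 after 24 h, 6.92-fold higher. Phlda3, an inhibitor of AKT, was 3.97-fold higher and Sesn2 3.47-fold higher. On the lower side stood the kinase Plk2, at 1888, 1784 and 406 (a log2 difference of -2.14), Ccng2 (3.47-fold) and Ccnd2 (3.27-fold).

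Several of the largest increases were in genes that were lower at 6 h than on the unstimulated array. Zfp36l1, which binds AU-rich mRNAs and speeds their decay, was at 1388 at 0 h, 58.3 after 6 h and 557 after 24 h, 9.55-fold higher between the LPS times. Cebpa, a myeloid transcription factor, was at 1771, 197 and 843, 4.27-fold higher. Gpr65, an acid-sensing receptor, was at 732, 341 and 2080.1, 6.10-fold higher. At 24 h Zfp36l1 and Cebpa were below their unstimulated level, whereas Gpr65 was above it. Over all genes 133 declined at least 2-fold from 0 h to 6 h and then rose at least 2-fold to 24 h, against 194 with the reverse course; the 6 h array enters both steps, so these counts are a description only.

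Of the others among the 15 largest increases, Antxr1, an anthrax toxin receptor, was 6.02-fold higher, at 38.4, 45.0 and 271. Pilra, an inhibitory receptor, was 5.70-fold higher, Plpp1, a lipid phosphatase, 5.68-fold, the class I-like H2-T24 4.97-fold and the transcription factor Nfic 4.27-fold. On the other side, Emp1, a membrane protein, was at 4502, 3140.4 and 234, 13.4-fold lower, followed by Niban1 (8.79-fold), the junction protein F11r (7.70-fold) and the kinase anchor Akap2 (7.35-fold). F11r and Niban1 were at least 2-fold higher at 6 h than at 0 h, and Emp1 was not.

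Other increases were of genes already induced, or first seen late. Marco, a scavenger receptor for bacteria and particles, was at the floor at 0 h, 298 after 6 h and 2158 after 24 h, 7.23-fold higher. Fgl2, a secreted fibrinogen-like regulator, was at 216, 373 and 2422, 6.49-fold higher. Cfb, factor B of the alternative complement pathway, was at the floor, 1119 and 4707, 4.21-fold higher. These 3 stood higher at each later time. Hp, haptoglobin, was at the floor on the 0 h and 6 h arrays and at 249 after 24 h, at least 6.49-fold higher, and it was at the floor on all 5 wild-type arrays. Neutrophil markers were mixed. At 0 h, 6 h and 24 h S100a8 was at 90.6, 236 and 507, and Camp at the floor, the floor and 107. Mmp8 was highest at 0 h, at 366, the floor and 66.5 in the same order. S100a9, Elane, Mpo, Ngp, Ltf and Cxcr2 were at the floor at 6 h and 24 h. The part of such cells in the Hp value was not tested.

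Antigen presentation by MHC class II was the list with the highest median, 1.11, with 4 of 7 compared genes at least 2-fold higher and none lower. That median was 0.50 with a floor at the 60th percentile and 0.54 with no filter. H2-DMa, which loads peptides, was at 196 before LPS, 207 after 6 h and 577 after 24 h, 2.79-fold higher. Cd74, the invariant chain, was at 508, 1079.8 and 2602, 2.41-fold higher. H2-Ab1 and H2-Aa, chains of the I-A molecule, were 2.29-fold and 2.15-fold higher. Named after their values were seen, the exceptions were Ifi30, a lysosomal reductase, at a log2 difference of -0.65, the protease Ctss at 0.06, and H2-Eb1 at 0.93. None of 15 MHC class I and immunoproteasome genes passed 2-fold, and their median was 0.31.

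Scavenger and lectin receptors split, with 4 of 22 at least 2-fold higher and 3 lower. Next to Marco, Clec4n (Dectin-2) was at 862, 172 and 771 at 0 h, 6 h and 24 h (4.47-fold higher), and Clec4a2 and Trem3 were 3.61-fold and 2.05-fold higher. The lower ones were Olr1 (at least 5.78-fold, to the floor), Mrc1 and Clec7a, the Dectin-1 receptor (2.03-fold). Genes of metal and iron handling split as well, 5 of 18 in each direction. The metallothionein Mt2 was at 2845, 9251 and 1632 (5.67-fold lower), and Hamp, the iron hormone hepcidin, was at the floor, 249.8 and the floor (at least 6.51-fold lower). Slc40a1, the iron exporter ferroportin, was at 3229, 143 and 367, 2.57-fold higher, and Slc11a1, the iron pump of the phagosome, was 2.51-fold higher.

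Metabolic and housekeeping lists moved little. Of 29 glycolysis and hypoxia genes 3 were at least 2-fold lower, Ndrg1 (2014, 2240.4 and 303 at 0 h, 6 h and 24 h, 7.38-fold), Pfkp (2.52-fold) and Pfkfb3 (2.01-fold), and none was higher. The median was 0.15, which became -0.05 when arrays were scaled to equal medians, so this list has no settled direction. Of 19 cholesterol synthesis genes Dhcr7 was 3.18-fold higher, at 582, 131 and 417, and Idi1 was 2.38-fold lower. No gene passed 2-fold among 42 of the respiratory chain, 19 of the tricarboxylic acid cycle, 31 of the constitutive proteasome and 24 of endoplasmic reticulum chaperones. The proteasome genes nevertheless leaned one way, with 28 of 31 above 0 and a median of 0.36, as did the respiratory chain with 36 of 42 above 0 and a median of 0.17; the median of all genes was 0.06.

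The remaining lists were small in effect or mixed. Of 25 NRF2 antioxidant genes 2 were higher, among them Me1 (2.62-fold), and Slc7a11 was lower (2.14-fold). Of 21 genes of amino acid stress 2 were higher and 3 lower, the last being Psat1 (2.88-fold), Asns (2.74-fold) and Ppp1r15a (2.39-fold). Of 12 genes of LXR and cholesterol efflux Nr1h3, the receptor LXR alpha itself, was 3.02-fold higher and Apoc2 2.02-fold higher. Of 13 complement and chemoattractant genes Fpr2, the formyl peptide receptor, was 3.67-fold higher beside Cfb. Of 15 fatty acid synthesis genes Me1 and Scd2 were the 2 at least 2-fold higher. Of 36 lysosome genes Neu1 alone passed, 2.27-fold higher, but its other probe sets did not follow: the median over all of them gave a log2 difference of -0.43. Of 30 ribosome biogenesis genes 1 passed, Heatr1 at 2.01-fold. Among all compared genes the shares past 2-fold were 4.32% upward and 6.16% downward. Against these shares, the counts of 1 or 2 in the NRF2, lysosome and ribosome biogenesis lists do not set those lists apart. Of 19 lineage factors and growth factor receptors 4 were higher and 4 lower, with Maf (2.77-fold) and Csf3r (2.08-fold) on the one side and Irf1 (2.32-fold) and Tfec (2.27-fold) on the other.

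Genes linked to calcineurin and NFAT, the calcium-dependent pathway named in the title of the series, showed 4 of 13 lower and none higher, with a median of 0.09. Beside Egr2 these were Rcan1, an NFAT target that inhibits calcineurin, at 399.9, 1043 and 286 at 0 h, 6 h and 24 h (3.65-fold lower), Gadd45b (2.46-fold) and Ikzf1 (2.18-fold). The compared subunits of calcineurin, Ppp3ca, Ppp3cb, Ppp3cc and Ppp3r1, picked after their values were seen, had log2 differences of 0.34, 0.09, -0.55 and 0.27.

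The hosts of well-known miRNAs stood at opposite ends of the comparison. Mir155hg, from which miR-155 is cut, was at the floor at 0 h, 549.6 after 6 h and 74.9 after 24 h, 7.34-fold lower. Dleu2, whose intron carries miR-15a and miR-16-1, was at 148, 39.5 and 249, 6.29-fold higher, though its other probe set gave a log2 difference of 1.11. Dleu2 is among the 15 largest increases, and Mir155hg, the next gene below the 15 largest decreases, was chosen after its values were seen. Their miRNAs are shown to identify what these transcripts carry, and the mature miRNAs were not measured. The seed, bases 2 to 8, is in capitals, and sequences and positions are those of RefSeq in GRCm38.p6.
mmu-miR-155-5p: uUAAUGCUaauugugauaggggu
mmu-miR-15a-5p: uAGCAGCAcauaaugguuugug
mmu-miR-16-5p: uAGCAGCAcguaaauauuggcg
The first lies at chr16:84714143-84714165 on the + strand, and the others at chr14:61632075-61632096 and chr14:61631936-61631957 on the - strand. miR-15a and miR-16 share the seed AGCAGCA, and miR-155 has another.

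The wild-type arrays, which share no array with this pair, were used to sort genes by their response to LPS. In wild type, 10.5% of 6936 compared genes were at least 2-fold higher at 6 h than at 0 h and 9.5% lower, and at 24 h 10.6% of 6965 were higher and 10.7% lower. Of 215 genes higher in wild type at 6 h only, 77 were at least 2-fold lower between 6 h and 24 h in the CD14-deficient cells, 35.8%, and none was higher. Of 454 genes higher in wild type at both times, 124 were lower there, 27.3%, and 15 higher. Of 313 genes lower in wild type at 6 h only, 89 were higher, 28.4%, and of 275 lower at both times 61 were, 22.2%. Genes outside the wild-type response moved rarely, 70 of 4886 higher, 1.43%, and 106 lower, 2.17%. Of 210 genes higher in wild type at 24 h only, 35 were higher in the CD14-deficient interval, 16.7%, and 2 lower, and of 385 lower at 24 h only, 83 were lower, 21.6%, and 5 higher.

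**Figure D3:**
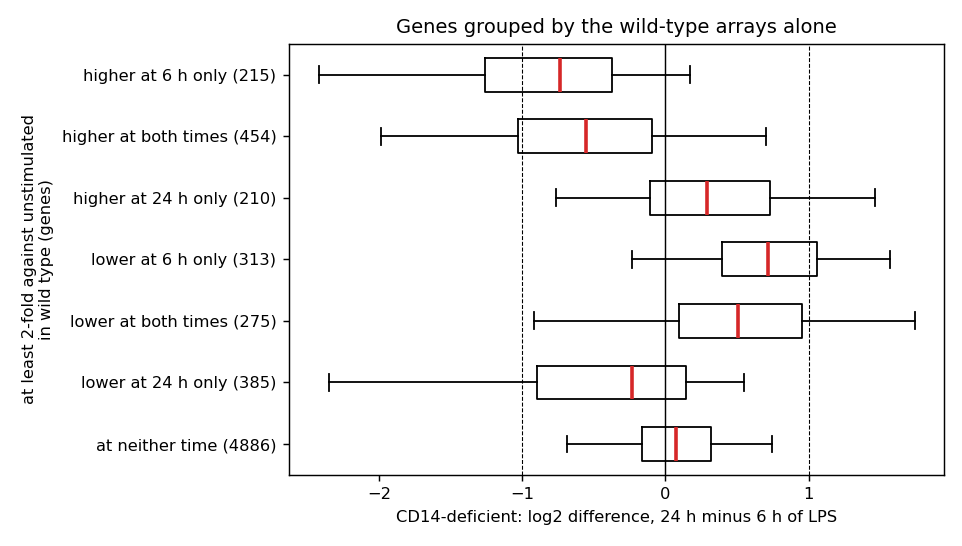
Log2 difference between 24 h and 6 h of LPS in CD14-deficient macrophages (x) for genes grouped by the wild-type arrays alone (y, number of genes in parentheses): red line, median; box, quartiles; whiskers, the 5th to the 95th percentile; dashed lines, 2-fold. Genes higher in wild type at 6 h only centre at -0.74, those higher at both times at -0.56, and those lower at 6 h only at 0.72.

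The same interval in wild type had 376 of 6835 genes at least 2-fold higher, 5.5%, and 380 lower, 5.56%. In wild type with EGTA it had 386 of 6887 higher, 5.6%, and 423 lower, 6.14%. Of 6618 genes compared in both genotypes, 140 were higher in both, which is 54.7% of the 256 higher in CD14-deficient cells and 42.2% of the 332 higher in wild type. Lower in both were 169, which is 42.1% of 401 and 48.3% of 350. With intensities as deposited 67 genes were higher in both and 227 lower in both. Across these genes, which are not independent replicates, Pearson's r was 0.62 and Spearman's rho 0.57. Larger declines were more frequent in the CD14-deficient pair, with 88 genes at least 4-fold lower against 41 in wild type and 55 with EGTA.

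Some lists lay lower in the CD14-deficient pair than in the wild-type one. For inflammatory cytokines the wild-type median was -0.26, with 3 of 14 at least 2-fold lower, and 10 of the 12 genes compared in both had the lower difference in the CD14-deficient cells. For NF-kB subunits and feedback regulators it was -0.13, with none of 22 lower by 2-fold, and 19 of 21 genes were below wild type. For costimulatory ligands it was -0.02, with 1 of 15 lower, and 13 of 15 genes were below wild type. The mitosis genes were lower in wild type as well, 28 of 38 by at least 2-fold at a median of -1.35, and 36 of 38 were further down in CD14-deficient cells. EGTA medians for these 4 lists were -0.48, -0.29, -0.14 and -1.47, nearer to wild type than to CD14 deficiency. DNA replication differed: 27 of 34 genes were below wild type, at medians of -0.56 against -0.10, but the EGTA median was -0.55. Between 6 h and 24 h the deposited array median went from 97.7 to 67.2 in wild type and from 82.4 to 95.7 in CD14-deficient cells. Gaps between the pairs, here and below, therefore depend on the scaling, and wild-type list medians were not recomputed under another one. With 1 array per group the difference between the genotypes was not tested.

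Other lists lay higher in the CD14-deficient pair. The wild-type median was -0.44 for glycolysis and hypoxia, with 10 of 28 genes at least 2-fold lower, and 5 of 28 genes were below wild type in the CD14-deficient cells. For cholesterol synthesis the wild-type median was -0.82, with 8 of 19 genes lower, against -0.24, and 4 of 19 genes were below wild type. For ribosome biogenesis it was -0.36 against 0.21, and 3 of 27 genes were below. With EGTA the medians of these lists were -0.37, -0.08 and -0.09 in the same order. In the CD14-deficient cells 3 of 28, 11 of 19 and 5 of 28 genes were below the EGTA pair. The cholesterol list thus lay higher than in wild type without EGTA, but not higher than in wild type with EGTA. MHC class II was higher at 24 h than at 6 h in both genotypes, with a larger wild-type median of 1.66, and all 7 genes compared in both lay below wild type. The courses from 0 h differed. The median intensity of these 7 genes at 0 h, 6 h and 24 h was 437, 725 and 1403 in the CD14-deficient cells. In wild type it was 2042, 1027 and 2089, which is lower at 6 h and close to the 0 h value at 24 h.

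**Figure D4:**
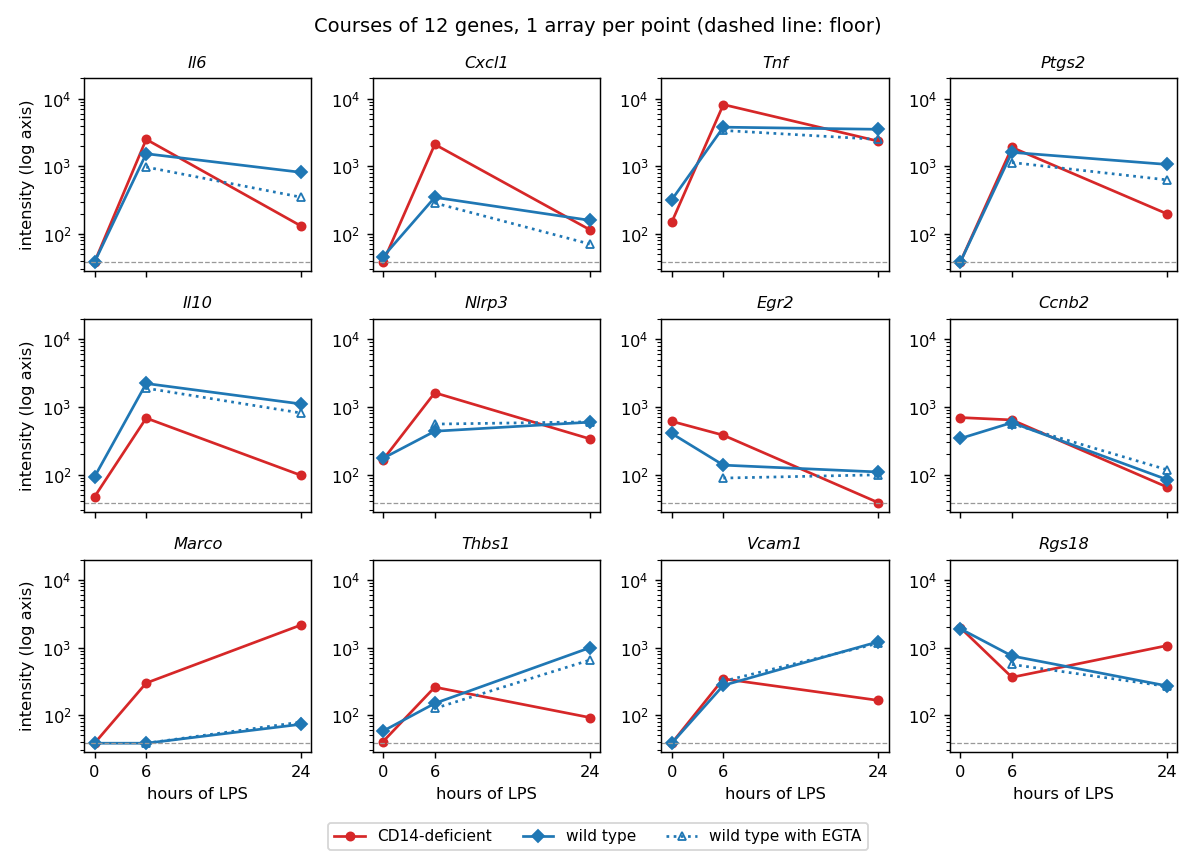
Intensity (y, log axis) of 12 genes against hours of LPS (x) in CD14-deficient (red), wild-type (blue) and EGTA-treated wild-type macrophages (open triangles), 1 array per point; the dashed line is the floor of 38.4. Il6, Ptgs2 and Il10 are further down at 24 h in the CD14-deficient cells than in wild type, Marco is higher there, and Thbs1, Vcam1 and Rgs18 run in opposite directions in the genotypes after 6 h.

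Levels at both times show what lies behind such gaps. Il6 in wild type was at 38.4, 1538 and 816 at 0 h, 6 h and 24 h, 1.89-fold lower between the LPS times, so the CD14-deficient cells were above wild type at 6 h and below it at 24 h. Tnf in wild type was at 319.6, 3802 and 3535, 1.08-fold lower, again with the higher 6 h value in the CD14-deficient cells. Nlrp3 was at 174, 437 and 595 in wild type and crossed in the same way. Ptgs2, at 1612 and 1068 in wild type after 6 h and 24 h, was alike at 6 h and apart at 24 h. Il10, at 2223 and 1107, was lower in the CD14-deficient cells at both times. Not every cytokine followed: Il12b was at 307 and 63.4 in wild type, 4.84-fold lower and thus the steeper decline in wild type.

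Of 6457 genes above the floor on all 6 LPS arrays, 144 had a log2 difference at least 1 below both wild-type pairs, and 85 at least 1 above both. The 10 with the largest gap below were Thbs1, Vcam1, Il6, Ptgs2, Nlrp3, Tpx2, Cxcl1, Metrnl, Sgms1 and Cxcl2. Thbs1, the matrix protein thrombospondin 1, was at 259.5 and 92.1 after 6 h and 24 h in the CD14-deficient cells, at 149 and 992 in wild type and at 126 and 652 with EGTA. Vcam1, an adhesion molecule for lymphocytes, was at 344 and 165, at 275 and 1218, and at 318 and 1156 in the same order. At 6 h neither was lower in the CD14-deficient cells than in wild type without EGTA, and at 24 h both were far lower. The other probe set of Thbs1 had a difference of -0.92 in the CD14-deficient pair, and those of Vcam1 had -0.93 and 0.80. Tpx2, a spindle protein, differed by -1.66 there, 0.64 in wild type and 0.66 with EGTA, and its other probe set by -1.25 in the CD14-deficient pair.

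The 10 with the largest gap above were Rgs18, Nrp1, Mef2c, Cat, Npl, Nme4, Luzp1, Aldoc, Atm and Tulp3. Rgs18, a regulator of G protein signalling, was at 363 and 1067 in the CD14-deficient cells, at 750.2 and 271 in wild type and at 562 and 266 with EGTA. Nrp1, a coreceptor of semaphorins and VEGF, was at 649 and 1591, at 872 and 355, and at 809 and 347. Mef2c, a transcription factor, was at 173 and 411, at 223 and 95.4, and at 261 and 133. All 3 started lower than wild type at 6 h and ended above it at 24 h, and in the CD14-deficient cells they had been at 1967, 4441 and 904 before LPS. Cat, catalase, differed by 0.27 in the CD14-deficient pair against -1.43 and -1.46, so it passed 2-fold in the wild-type pairs and not in the CD14-deficient one.

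**Figure D5:**
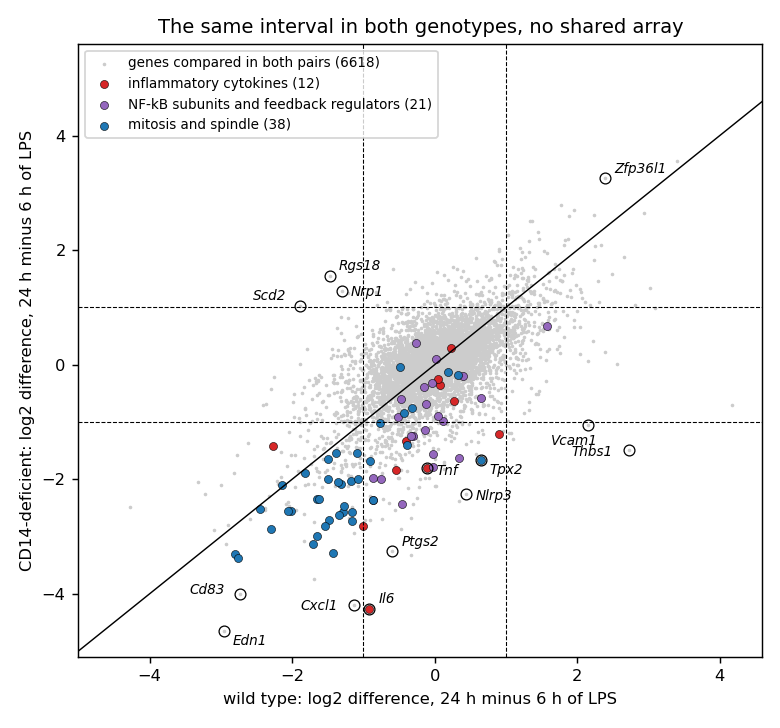
Log2 difference between 24 h and 6 h of LPS in wild type (x) and in CD14-deficient macrophages (y) for the 6618 genes compared in both pairs, with 3 gene lists in colour; the solid line is equality and dashed lines mark 2-fold. Most mitosis genes lie low on both axes. Below the line of equality lie 36 of 38 mitosis genes, 10 of 12 cytokines and 19 of 21 NF-kB subunits and feedback regulators, with Il6 at -0.91 and -4.26.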

How the data were processed

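Macrophages grown from bone marrow were profiled on Affymetrix arrays, 8 in number and 1 per group. The deposited table gives an intensity on a linear scale per array for 22690 probe sets, which the authors made with MAS5 per the submitters' processing notes; its version and any scaling to a common target are not given in the sources used here. The 2% trimmed mean of the deposited intensities ran from 314 to 527 over the arrays (428 and 467 for the CD14-deficient LPS arrays at 6 h and 24 h), so the arrays were quantile normalized, which gives all of them 1 distribution and removes any shift of all genes together. A floor was set at the 40th percentile (intensity 38.4) before log2 was taken. Where 1 of 2 arrays is at the floor, the fold is given as "at least". No detection calls were used, and the number of arrays limits the precision.

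Probe sets were named by the platform annotation, with symbols updated through a RefSeq gene table of GRCm38.p6: 20393 had 1 gene (20364 matched by gene identifier), 691 had several and 1606 were not listed. Each of 12394 genes was represented by its probe set of highest mean. Promoters and miRNAs are RefSeq's in GRCm38.p6; motifs were searched on both strands.

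The 24 h to 6 h difference was taken in the CD14-deficient pair and, for reference, in the wild-type pair and the wild-type pair with EGTA, and genes at least 2-fold apart were counted. Genes named are the 15 largest increases and decreases with both arrays above the floor, in each of 35 lists the 4 largest differences and any past 2-fold, the 10 in each direction farthest from both wild-type pairs, and 14 further genes (Marco, Nos2, Ptges, Ptgs2, Csf2, Rcan1, Il2, Cxcl10, Ifnb1, Il10, Il12b, Il6, Tnf and Cd14); others are marked in the text or serve to describe thresholds and cell types. The members and lists were chosen with earlier results of these data known. Alternatives were other scalings, floors, filters, fold thresholds and the median of a gene's probe sets. Python 3.11.15 with numpy 2.4.6, pandas 2.3.3, scipy 1.17.1 and matplotlib 3.10.9 was used, and the procedure was tested on simulated data.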

Additional observations from a re-analysis of the deposited data

Results flagged for a closer look

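In 4 genes the 24 h to 6 h difference was at least 2-fold in the CD14-deficient pair and at least 2-fold the other way in both the wild-type pair and the wild-type pair with EGTA. The log2 differences in the CD14-deficient pair were 1.29 for Nrp1, 1.56 for Rgs18, -1.49 for Thbs1 and -1.06 for Vcam1. In wild type they were -1.30, -1.47, 2.73 and 2.15, and with EGTA -1.22, -1.08, 2.37 and 1.86, in the same order. With 1 array per group the difference between the genotypes was not tested. The second probe set of Rgs18 had a difference of 1.27 in the CD14-deficient pair and those of Nrp1 had 0.99 and 0.71, so they moved the same way, whereas 1 of the 2 other probe sets of Vcam1 had 0.80, the other way.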

How the results depend on the processing

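No paired analysis was possible because each group has 1 array and no replicate numbers. The counts of genes at least 2-fold higher (295) and lower (421) in the CD14-deficient pair, and higher (140) and lower (169) there and in wild type, moved most with the settings that change which genes can pass. With the intensities as deposited, 513 genes were higher and 67 were higher in both pairs. With a floor at the 60th percentile, which lies above the filter, the counts were 163, 246, 77 and 86 in the order given, with a filter at the 75th percentile 140, 211, 67 and 71, and with a 3-fold threshold 64, 168, 22 and 52. Of the genes higher in wild type at 6 h only, 23.7% were lower in the CD14-deficient interval with intensities as deposited and 22.7% at 3-fold, against 35.8%. Of those lower in wild type at 6 h only, 47.0% and 18.8% were higher, against 28.4%. The other 22 counts and 23 shares of this kind stayed within 1.5-fold of their value, among them 317 lower genes and 227 lower in both pairs with intensities as deposited. Neu1 reversed, from a log2 difference of 1.18 to -0.43 with the median of all its probe sets. Of 188 named genes past 2-fold, 180 stayed past it at equal medians, 170 as deposited, 134 with the higher floor and 170 with the median of probe sets; 2 called genes, Clcn7 and Ezr, had another probe set past 2-fold the other way. The list medians of lysosome, glycolysis, immediate early and scavenger genes changed sign at equal medians, and those of the DUSP, metal and tricarboxylic acid lists as deposited. Folds over values near the floor are imprecise.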

Other observations

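Of 2246 probe sets without 1 named gene, controls left out, 928 were bright enough to be compared in the CD14-deficient pair. Of these, 40 were at least 2-fold higher and 60 at least 2-fold lower at 24 h than at 6 h of LPS. These shares are near the 4.32% and 6.16% of the 6831 compared genes, so they do not set these probe sets apart. Among 4105 other probe sets of 2711 compared genes, 366 belonged to genes called at least 2-fold different, and 355 of these had the sign of the probe set used.

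A further 5 genes ran at least 2-fold in opposite directions in the CD14-deficient and the wild-type pair, but not in the pair with EGTA. Scd2, a fatty acid desaturase, was at 3431 after 6 h and 7017 after 24 h in the CD14-deficient cells, at 2424 and 655 in wild type and at 2243 and 1863 with EGTA. Mef2c had a difference of 1.25 against -1.22, and with EGTA it was -0.97, just short of 2-fold. Clec2d, Ets2 and Gprc5b were lower in the CD14-deficient pair, by log2 differences of -1.20, -1.19 and -1.29, against 1.05, 1.07 and 1.10 in wild type. These differences between pairs were not tested.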
